A study of Arabidopsis thaliana with 4 samples.

Results

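The genes described here are 9 Arabidopsis thaliana genes that plants switch on when sulphur runs short. They are the SULPHUR DEFICIENCY INDUCED genes SDI1 and SDI2, the RESPONSE TO LOW SULPHUR genes LSU1, LSU2, LSU3 and LSU4, and the genes of 3 enzymes or enzyme relatives, BGLU28, GGCT2;1 and SHM7. They were picked by gene identifier, and 8 of the 9 were found among the 1984 genes of the deposited table. LSU4 (AT5G24655) is not among the listed genes, so its expression was not analysed here, and it appears only where gene sequences are compared. The table lists genes that the authors had called in the comparison of ndx1-4 with Col-0, and the 8 genes were singled out with their values known, so the differences below describe these libraries and are not tests.

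Messenger RNA was sequenced from 10-day-old seedlings of the ndx1-4 mutant and of the Col-0 wild type, with 2 libraries of each genotype. The mutant carries a T-DNA insertion in NODULIN HOMEOBOX (NDX), a plant homeobox protein linked to gene repression and heterochromatin, in the Col-0 background. It is a single insertion line, and the sources used here do not state the number of seedlings in a library or the sulphate in their medium. NDX itself (AT4G03090), which checks the labels, stood at 0.98 and 1 FPKM with the ndx1-4 insertion, against 5.08 and 4.96 FPKM in Col-0. FPKM is read abundance scaled to gene length and to the amount sequenced, so levels of different genes can be set side by side. Read counts, which the methods also name for this table, were not used here, so values under 1 FPKM have no counting error beside them.

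Plants take up sulphur as sulphate, reduce it and build it into cysteine, from which methionine, glutathione and the defence compounds called glucosinolates are made. When sulphate is scarce, the transcription factor SLIM1 turns on much of the response, and the cysteine precursor O-acetylserine builds up. SDI1, LSU1, GGCT2;1, SHM7 and the APS reductase gene APR3 belong to a small set of genes that rise together with O-acetylserine. Such genes serve as markers of the sulphur status of a plant.

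In short, all 8 genes were lower in ndx1-4 than in Col-0, and the genotypes did not overlap in 8 of the 8, beside 56.5% of all 1984 listed genes, which were lower without overlap. In a limma fit across the whole table, with an adjusted p under 0.01 as the threshold, 8 of 8 were called lower in ndx1-4, beside 55.9% of all listed genes in that direction, 43% in the other and 98.9% in either. Nothing is read from these counts, because the table was chosen on the same comparison. The size of the decrease ranged widely among the 8, with ndx1-4 means between 1.02% of the Col-0 mean in BGLU28 and 47.8% in SHM7. The median log2 ratio of mean FPKM, ndx1-4 over Col-0, was -3.02 over the 8 genes and -0.20 over all 1984 listed genes. At least a 2-fold decrease of mean FPKM was seen in 8 of the 8 (11.6% of listed genes), a decrease of at least 4-fold in 6 (6.5%) and of at least 8-fold in 4 (4.64%).

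**Figure D1:**
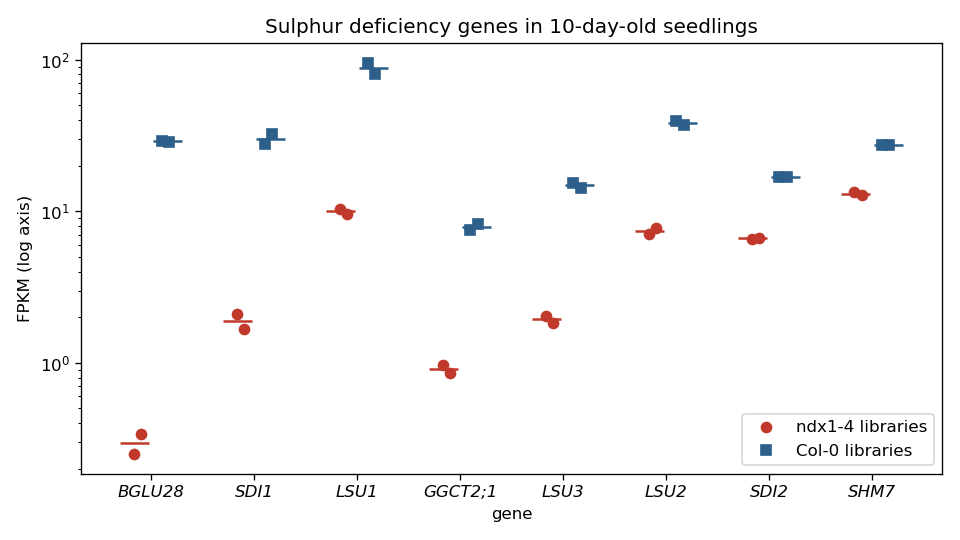
FPKM on a log axis of the 8 listed sulphur deficiency genes, ordered from the largest to the smallest decrease, in the ndx1-4 libraries (circles) and the Col-0 libraries (squares), with a line at each mean (n = 2 each). Every ndx1-4 value lies below both Col-0 values of the same gene, from 0.25 and 0.34 FPKM against 28.9 and 28.8 FPKM in BGLU28 to 13.33 and 12.79 FPKM against 27.16 and 27.43 FPKM in SHM7.

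The SDI proteins carry tetratricopeptide repeats and act in sulphur-starved plants as repressors of glucosinolate synthesis, which saves sulphur for primary metabolism. SDI1 (AT5G48850, TAIR10 chromosome 5, 19805437 to 19807853, minus strand, 4 exons) measured 2.1 and 1.68 FPKM in ndx1-4, against 27.59 and 32.15 FPKM in Col-0. The ndx1-4 mean of 1.89 ± 0.297 FPKM was 6.33% of the Col-0 mean of 29.87 ± 3.22 FPKM (SD, n = 2 each). Its limma difference, ndx1-4 minus Col-0 on the log2(FPKM + 1) scale, was -3.42 ± 0.11 (SE). SDI2 (AT1G04770, chromosome 1, 1336274 to 1337849, minus strand, 4 exons) measured 6.56 and 6.68 FPKM in ndx1-4, against 16.74 and 16.76 FPKM in Col-0. Its mean in ndx1-4 was thus 39.5% of that in Col-0, and the limma difference was -1.22 ± 0.07 (SE). Replicates of SDI2 lay closer together than those of SDI1, which differed by 0.32 on the log2 scale in ndx1-4 and by 0.22 in Col-0.

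The relation between the SDI genes turned over between genotypes. SDI1 stood at 0.32 and 0.251 times the level of SDI2 in the ndx1-4 libraries, and at 1.65 and 1.92 times that level in the Col-0 libraries. SDI2 thus had the higher level in both ndx1-4 libraries and SDI1 in both Col-0 libraries. The SDI2 value has a limit of its own. Its 3′ part shares 431 bases with AT1G04760, a gene on the plus strand, the library kit does not mark strand, and 20.7% of the 50-base words in the SDI2 transcript also occur, on the opposite strand, in transcripts of AT1G04760. Reads over that stretch cannot be told apart, and their part in the SDI2 level was not tested. The neighbour is not among the listed genes.

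LSU genes encode small coiled-coil proteins that bind many partners and respond to sulphur shortage and other stresses. LSU1 (AT3G49580, chromosome 3, 18374908 to 18375940, minus strand) was the most abundant of the 8 genes in Col-0. It measured 10.39 and 9.61 FPKM in ndx1-4, against 95.67 and 80.75 FPKM in Col-0, so that 11.3% of the Col-0 mean remained. LSU2 (AT5G24660, chromosome 5, 8443279 to 8444101, minus strand) measured 7.12 and 7.73 FPKM in ndx1-4, against 39.45 and 37.02 FPKM in Col-0, or 19.4% of the Col-0 mean. LSU3 (AT3G49570, chromosome 3, 18372404 to 18373147, minus strand) measured 2.05 and 1.82 FPKM in ndx1-4, against 15.37 and 14.22 FPKM in Col-0, or 13.1%. The limma differences were -3.02 ± 0.08 (SE) for LSU1, -2.22 ± 0.07 (SE) for LSU2 and -2.43 ± 0.09 (SE) for LSU3.

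LSU3 and LSU1 are neighbours on chromosome 3, with 1760 bases between them, and LSU4 and LSU2 are neighbours on chromosome 5, with 1914 bases between them. The coding sequences are close relatives, at 80.7% identity between LSU1 and LSU3, 87.4% between LSU2 and LSU4, and 69.1% to 76.5% for the other pairs. How far they can be told apart matters for the FPKM, since the reads were 50 bases long. A 60-base coding stretch around the longest run that LSU2 and LSU4 share shows the differences, read 5′ to 3′ on the coding strand of RefSeq TAIR10.1, with bases that differ from LSU2 in capitals:
LSU1, chr3:18375489-18375548, minus strand: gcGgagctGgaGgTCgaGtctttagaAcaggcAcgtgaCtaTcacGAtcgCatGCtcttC
LSU2, chr5:8443526-8443585, minus strand: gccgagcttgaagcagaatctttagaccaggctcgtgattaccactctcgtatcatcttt
LSU3, chr3:18372722-18372781, minus strand: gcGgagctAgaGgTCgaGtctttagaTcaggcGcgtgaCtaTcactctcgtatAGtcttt
LSU4, chr5:8440907-8440966, minus strand: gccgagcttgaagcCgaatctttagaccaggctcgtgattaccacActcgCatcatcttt
In this stretch LSU1 differs from LSU2 at 16 bases, LSU3 at 12 and LSU4 at 3, and the run that LSU2 and LSU4 share is 30 bases long. Across whole transcripts, 0 of the 50-base words of LSU1, LSU2, LSU3 and LSU4 occur in a transcript of any other annotated gene. A read without errors that lies within an exon or an annotated junction therefore belongs to 1 LSU gene.

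Within the LSU family, the ratio of LSU1 to LSU2 also differed between the genotypes. Of the summed mean FPKM of LSU1, LSU2 and LSU3, LSU1 made up 51.7% in ndx1-4 and 62.5% in Col-0, and LSU2 made up 38.4% in ndx1-4 and 27.1% in Col-0. LSU1 was 1.46 and 1.24 times as high as LSU2 in the ndx1-4 libraries, against 2.43 and 2.18 times in the Col-0 libraries. For the chromosome 3 neighbours, LSU1 was 5.07 and 5.28 times as high as LSU3 in ndx1-4, against 6.22 and 5.68 times in Col-0. The gap between genotypes was wider for LSU1 with LSU2 than for LSU1 with LSU3. For LSU1 over LSU3 the genotypes came as near as 5.28 and 5.68, closer than the Col-0 replicates at 5.68 and 6.22. The genotypes did not overlap in either ratio. Ratios without overlap were not counted over other gene pairs, so nothing is read from that.

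**Figure D2:**
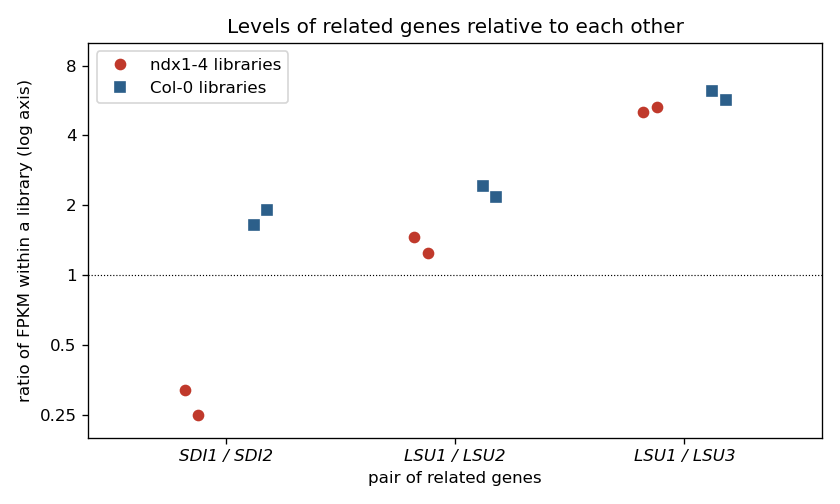
Ratio of the FPKM of related genes within each library, on a log axis, for the ndx1-4 libraries (circles) and the Col-0 libraries (squares), with a dotted line at a ratio of 1. SDI1 over SDI2 lies below 1 in ndx1-4 (0.32 and 0.251) and above 1 in Col-0 (1.65 and 1.92), while LSU1 over LSU3 lies between 5.07 and 6.22 in all 4 libraries.

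The 3 remaining genes act on sulphur compounds or on serine. BGLU28 (AT2G44460, chromosome 2, 18346306 to 18350026, plus strand, 13 exons) encodes a beta-glucosidase that releases sulphur from stored glucosinolates. It measured 0.25 and 0.34 FPKM in ndx1-4, against 28.9 and 28.8 FPKM in Col-0. This was the largest decrease of the 8, with a limma difference of -4.53 ± 0.09 (SE), and BGLU28 had the 33rd lowest log2 ratio of mean FPKM of the 1984 listed genes. Its ndx1-4 replicates differed by 0.44 on the log2 scale, the widest gap of the 8 genes, and its fold rests on ndx1-4 values under 1 FPKM.

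GGCT2;1 (AT5G26220, chromosome 5, 9162969 to 9164884, minus strand, 6 exons) encodes a gamma-glutamyl cyclotransferase that breaks down glutathione in the cytosol. Its level was 0.97 and 0.86 FPKM in ndx1-4, against 7.54 and 8.19 FPKM in Col-0, the lowest of the 8 genes in Col-0. Its mean in ndx1-4 was 11.6% of that in Col-0, and the limma difference was -2.21 ± 0.10 (SE). SHM7 (AT1G36370, chromosome 1, 13696042 to 13698739, minus strand, 4 exons), also known as MSA1, encodes a serine hydroxymethyltransferase-like protein that has been linked to S-adenosylmethionine supply and DNA methylation. It measured 13.33 and 12.79 FPKM in ndx1-4, against 27.16 and 27.43 FPKM in Col-0, a limma difference of -1.01 ± 0.06 (SE) and the smallest decrease of the 8.

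The order of the levels was not the same in the genotypes. In ndx1-4 it ran SHM7, LSU1, LSU2, SDI2, LSU3, SDI1, GGCT2;1 and BGLU28, from 13.06 ± 0.382 to 0.295 ± 0.0636 FPKM (SD, n = 2 each), and only the neighbours LSU3 and SDI1 overlapped. In Col-0 it ran LSU1, LSU2, SDI1, BGLU28, SHM7, SDI2, LSU3 and GGCT2;1, from 88.21 ± 10.6 to 7.865 ± 0.46 FPKM (SD, n = 2 each), and only the neighbours SDI1 and BGLU28 overlapped. BGLU28 was thus the lowest of the 8 in ndx1-4 and stood in the middle of the order in Col-0. Levels spanned 44.3-fold in ndx1-4 and 11.2-fold in Col-0. Summed over the 8 genes they came to 42.77 and 41.51 FPKM in the ndx1-4 libraries, against 258.42 and 245.32 FPKM in the Col-0 libraries. Replicates of the 8 differed by a median of 0.15 on the log2 scale in ndx1-4 and 0.10 in Col-0, against medians of 0.06 and 0.05 over all listed genes.

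**Figure D3:**
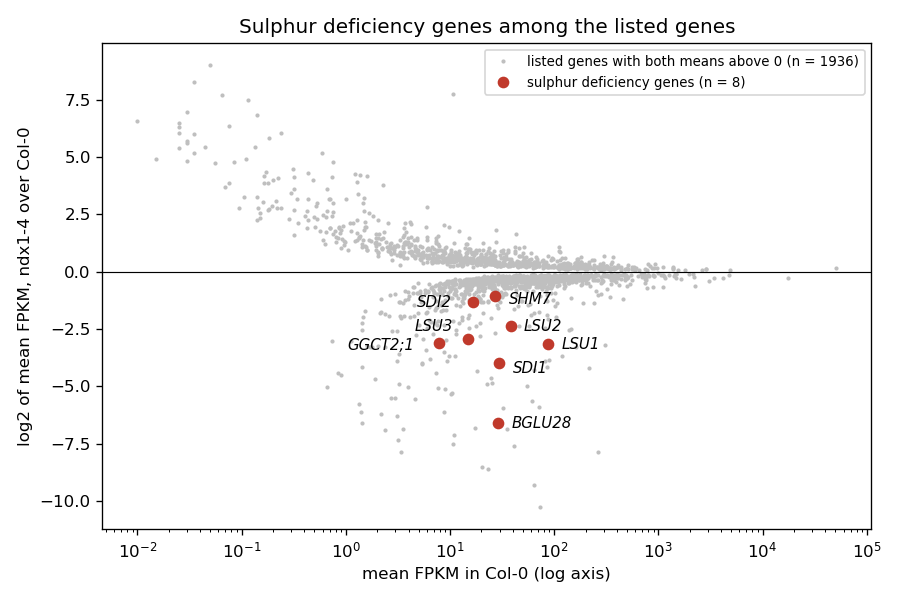
Log2 ratio of mean FPKM, ndx1-4 over Col-0, against the mean FPKM in Col-0 on a log axis, for the 1936 listed genes with both means above 0 (grey) and the 8 sulphur deficiency genes (red, named). SHM7 and SDI2 have the smallest decreases of the 8, at -1.06 and -1.34, and BGLU28 lies lowest at -6.61. The median over the listed genes lower in ndx1-4 is -0.42. The gap around 0 is there because only called genes are listed.

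Sequences before the gene starts were searched for the core of the sulphur-responsive element, GAGAC on either strand, which is known from the promoter of the sulphate transporter gene SULTR1;1. In the 500 bases before the annotated start, 3 of the 8 listed genes held it (SDI1 with 3 matches, BGLU28 with 1 and GGCT2;1 with 1). LSU4 held 1 match, and SDI2, LSU1, LSU2, LSU3 and SHM7 held 0 in this window. Of 37876 annotated genes with such a window 45.7% held a match, so a window with one is common. Among listed genes the share was 41.4%. Windows with 3 or more matches made up 4.09% of all annotated windows. SDI1 is 1 gene of those searched, so nothing is read from its 3 matches. The matches nearest to the start are shown with their surroundings, 5′ to 3′ on the strand of the gene in RefSeq TAIR10.1, with GAGAC or its complement GTCTC in capitals:
SDI1, chr5:19807854-19807906, minus strand: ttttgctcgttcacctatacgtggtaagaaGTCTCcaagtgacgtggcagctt
BGLU28, chr2:18346161-18346225, plus strand: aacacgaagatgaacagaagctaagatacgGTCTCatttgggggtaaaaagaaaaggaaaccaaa
GGCT2;1, chr5:9164929-9164993, minus strand: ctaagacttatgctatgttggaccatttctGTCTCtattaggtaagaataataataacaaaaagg
In these 3 genes every match lay on the strand opposite to the gene, with 3 of the matches in SDI1 alone. The strand of matches was not counted over all annotated genes, so nothing is read from it. The nearest match began 23 bases before the start in SDI1, 115 in BGLU28 and 79 in GGCT2;1. A match is a run of letters and does not show that a factor binds there.

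By position, LSU1 and LSU3 were the only pair of the 8 within 10000 bases of each other. The listed gene ATG13 (AT3G49590), at 29.45 and 28.54 FPKM in ndx1-4, against 35.02 and 34.29 FPKM in Col-0, lay within that distance of both. SDI1 had the listed neighbour KAT5 (AT5G48880), at 6.89 and 7.34 FPKM in ndx1-4, against 10.78 and 10.42 FPKM in Col-0. Within the same distance of LSU2, SDI2, BGLU28, GGCT2;1 and SHM7 there were 0 other listed genes.

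Genes that supply and use reduced sulphur were counted in lists of pathway genes. As a background, 5.21% of all annotated genes were listed, and of the listed genes 55.9% were called lower and 43% higher in ndx1-4. Of 12 sulphate transporter genes 6 were listed, and 6 were called lower in ndx1-4. After median-ratio scaling of the libraries, with factors drawn from the listed genes alone, 612 of the 1984 listed genes were called lower and 869 higher. Of the 6 transporter genes 4 were then called lower, without SULTR1;2 and SULTR4;1. Of 22 genes for sulphate assimilation and for cysteine and glutathione synthesis 10 were listed, 9 called lower and 1 higher, or 8 and 1 after that scaling, which lost the sulphite reductase gene SIR. The median log2 ratio was -0.69 over the listed transporter genes and -0.68 over the listed assimilation genes, against -3.02 over the sulphur deficiency genes. APR3, which codes for an APS reductase, the enzyme that reduces activated sulphate, and is induced with SDI1 and LSU1 in sulphur shortage, measured 9.33 and 10.19 FPKM in ndx1-4, against 27.32 and 30.48 FPKM in Col-0. SULTR1;3, a sulphate transporter of the phloem, measured 0.17 and 0.18 FPKM in ndx1-4, against 1.69 and 1.73 FPKM in Col-0. The exception was APS4, an ATP sulphurylase gene, at 74.18 and 74.55 FPKM in ndx1-4, against 64.74 and 65.09 FPKM in Col-0. Of 2 regulators and other sulphur responsive genes 1 was listed, BGLU30 (AT3G60140), and SLIM1 (AT1G73730) was not. BGLU30, a beta-glucosidase gene that is likewise induced by sulphur shortage, measured 0.25 and 0.67 FPKM in ndx1-4, against 6.56 and 6.19 FPKM in Col-0. Over these lists, the glucosinolate genes and the related genes described next, 24 genes were called lower and 3 higher. After median-ratio scaling the counts were 19 and 4, beside 612 lower and 869 higher over all 1984 listed genes.

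Glucosinolate synthesis is the process that SDI1 and SDI2 repress and from whose products BGLU28 frees sulphur. Of 26 genes of this process and its MYB factors 9 were listed, 8 called lower and 1 higher in ndx1-4, with a median log2 ratio of -0.51. The share called lower among all listed genes was 55.9%. After median-ratio scaling 6 of the 9 were called lower and 1 higher, beside 612 lower and 869 higher of the 1984 listed genes. CYP83B1 and SOT16 were then not called, with differences of -0.02 and -0.06. MYB28, the MYB factor of aliphatic glucosinolates with which SDI1 interacts, measured 24.07 and 22.5 FPKM in ndx1-4, against 33.08 and 31.9 FPKM in Col-0. The largest decrease was in MAM3 (AT5G23020), a chain elongation enzyme, at 21.47 and 21.93 FPKM in ndx1-4, against 43.29 and 44.05 FPKM in Col-0. MAM1, its close relative at the neighbouring locus, stood at 83.58 and 84.93 FPKM in ndx1-4, against 71.97 and 70.86 FPKM in Col-0.

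Of 16 relatives of the described genes 2 were listed, and the rest were not analysed here. Of all listed genes 43% were called higher in ndx1-4. GGCT2;2 (AT4G31290) measured 150.88 and 154.52 FPKM in ndx1-4, against 119.34 and 123.76 FPKM in Col-0, and was called higher. SHM1, the mitochondrial serine hydroxymethyltransferase of photorespiration, measured 684.21 and 677.54 FPKM in ndx1-4, against 648.95 and 642.43 FPKM in Col-0, and did not pass the threshold, although it was called higher after median-ratio scaling. Both are far more abundant than GGCT2;1 and SHM7 in these seedlings.

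**Figure D4:**
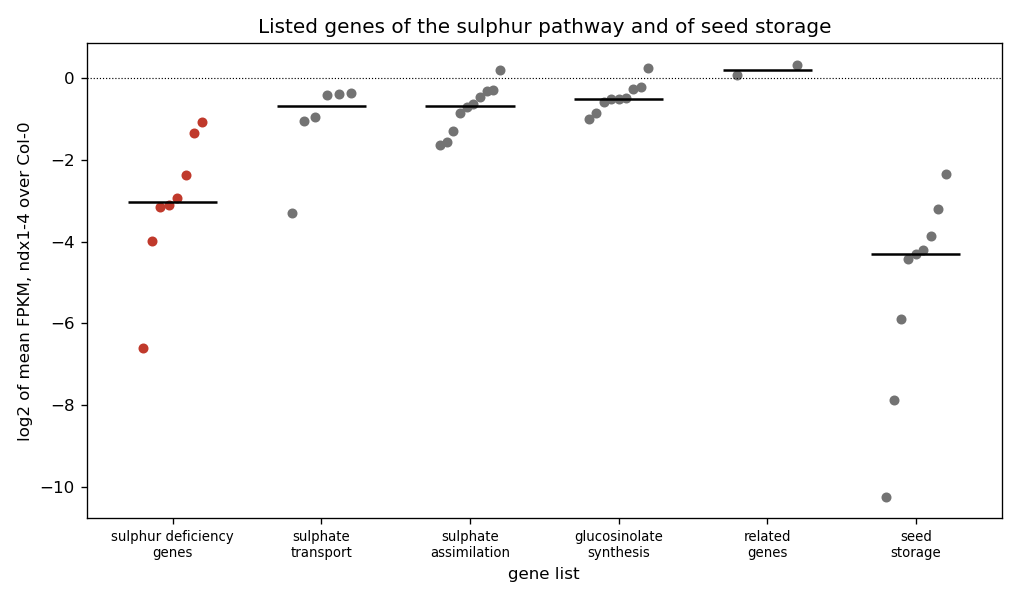
Log2 ratio of mean FPKM, ndx1-4 over Col-0, of each listed gene (points, sorted within a list) with the median of the list (line), for the 8 sulphur deficiency genes, 6 sulphate transport genes, 10 assimilation genes, 9 glucosinolate genes, 2 related genes and 9 seed storage genes. The medians are -3.02, -0.69, -0.68, -0.51, 0.20 and -4.31, and genes absent from the table are not shown.

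Markers of other tissues were looked up as well, beside the 5.21% of all annotated genes that were listed. All 9 seed storage and oil body genes of the marker list were called lower in ndx1-4, beside 55.9% of all listed genes. After median-ratio scaling the 9 were still called lower, beside 612 of the 1984 listed genes. Summed levels of the 9 genes were 69.22 and 59.41 FPKM in the ndx1-4 libraries, against 1076.18 and 1115.53 FPKM in the Col-0 libraries. Of these genes 0 were at 0 in any library. Of 12 root genes 1 was listed, CASP1, at 36.41 and 41.2 FPKM in ndx1-4, against 26.63 and 22.62 FPKM in Col-0. Of 10 genes of green tissue 1 was listed, RBCS3B, at 4107.73 and 4371.96 FPKM in ndx1-4, against 4699.31 and 4738.1 FPKM in Col-0. The direction of RBCS3B turned under median-ratio scaling, where it was not called. With 1 listed gene each, root and green tissue as a whole cannot be judged here. The part of seed, root and green tissue in the levels of the sulphur deficiency genes was not tested. In whole seedlings, fewer cells that express a gene and less RNA per cell cannot be told apart.

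The 5 other listed genes whose profile over the 4 libraries was nearest to the median profile of the 8 were found by distance on the log2(FPKM + 1) scale, after subtraction of the Col-0 mean of each gene. The nearest was GSTF6, a glutathione S-transferase gene, with a distance of 0.063. It measured 14.72 and 15.01 FPKM in ndx1-4, against 80.95 and 81.13 FPKM in Col-0. MGD2, a galactolipid synthase gene, followed at 0.146, then AT3G01570 at 0.152, the chalcone synthase gene TT4 at 0.153 and the transporter gene DTX1 at 0.172. With 2 genotypes and 4 libraries such a distance mostly reflects the size of the difference between genotypes.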

How the data were processed

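The deposited gene table holds FPKM per library for genes that the authors had called. The authors mapped the reads to Araport11 transcripts by Salmon with its correction for GC bias and made the gene calls by DESeq2 with independent hypothesis weighting, as the paper's methods state. Which step made the FPKM is not given in the sources used here. The seedling libraries were TruSeq mRNA libraries sequenced as single-end reads of 50 bases on a MiSeq instrument. Commas used as digit separators were removed. The deposited fold changes and adjusted p-values were not used, nor was the table of transposable elements. Groups and replicate numbers came from sample titles.

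For the differences, log2(FPKM + 1) values entered limma 3.58.1 (R 4.3.3, trended variance), over all 1984 listed genes and 4 libraries, with Benjamini-Hochberg adjustment over the table and a threshold of 0.01. This scale understates the change of low genes. Permuting 2 libraries against 2 gives p = 0.333 at the smallest (exact, two-sided), so genes were not permuted singly. The paper describes its mRNA libraries as independent biological replicates, while the labels of the seedling libraries number them only. The p-values therefore set the genotype difference against the spread between these libraries. The fit draws the variance of each gene towards a trend over all listed genes. Those genes were listed because they were called, so the SEs rest on a selected set and may be too small, which was not tested. The genes described, the lists and the tests were chosen with earlier results of these data known. The text names NDX, all genes found by the rule, list genes, the 5 nearest profiles, listed neighbours within 10000 bases and the gene overlapping SDI2. BGLU30 and MAM3 carry the RefSeq symbols DIN2 and IMS2. All 1984 identifiers had the same coordinates in RefSeq TAIR10.1 as in the TAIR10 table, so its sequence and gene models were used. Coding sequences were aligned with Biopython 1.88.

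Alternatives were a pseudocount of 0.1, a minimum mean of 1 FPKM, each library left out, a replicate block, median-ratio scaling, no variance trend, and adjustment over all 38094 annotated genes. The median-ratio factors came from the 1900 listed genes above 0 in every library. Only called genes are listed, so this scaling moves the median of a selected set close to 0. It cannot show which of the 2 scales is right. Replicate numbers did not pair the libraries, as the correlation of same-numbered deviations was 0.0239.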

Additional observations from a re-analysis of the deposited data

How the results depend on the processing

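All 8 sulphur deficiency genes and NDX kept their direction under the 10 alternatives, and their call under those that used all 4 libraries. Nothing is read from this, because the table was chosen on the same comparison. The median limma difference of the 8 genes, -2.32, became -2.92 where 0.1 FPKM was added in place of 1. It became -2.18 once libraries were scaled by median ratios. Both changes were by construction, and the median lay between -2.37 and -2.32 with a library left out. BGLU28 moved most, between -6.20 and -4.41. Median-ratio scaling shifted the median of all listed genes by 0.19 and left 612 genes of the whole table called lower against 1110, and 58.7% of called genes higher against 43.5%. With a library left out, 773 to 815 genes of the whole table were called against 1963, of which 422 to 469 were lower and 336 to 378 higher, with fewer samples in the fit and the lone library of a genotype assumed to vary like the other genotype's. In the sulphur pathway lists, 14 genes were then called lower, whichever library was left out, against 24, and 0 to 1 higher against 3. Median-ratio scaling gave 19 lower and 4 higher there. The 0 came without ndx1-4 replicate 2. With a replicate block, which changed no call of the 8 genes, 1958 genes of the table and 8 of the 8 were called. Read counts were not used, so values under 1 FPKM in ndx1-4 (BGLU28 and GGCT2;1) carry no counting interval.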
